A study of Mus musculus with 12 samples.

Results

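The 10 genes described here belong to the classical MHC class I pathway and were measured in pancreatic tumors labelled Young tumor and Old tumor. They were chosen by gene symbol: the heavy chains H2-K1 and H2-D1, the light chain B2m, the peptide loading genes Tap1, Tap2 and Tapbp, the immunoproteasome subunits Psmb8, Psmb9 and Psmb10, and the transactivator Nlrc5. All 10 symbols matched 1 row each among the 47643 genes of the deposited tables, and all 10 passed the filter on low counts. The tumors grew from KPC4662, a mouse pancreatic ductal adenocarcinoma line. Poly(A) RNA of tumor pieces was sequenced in 6 Young tumor and 6 Old tumor libraries, which share the tumor line and differ by the age label. The labels used here give no age, strain, sex or implantation site, nor how many mice the pieces came from, so p-values measure the spread between pieces, which may be technical. A single cell line stands for pancreatic cancer in all 12 libraries.

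MHC class I molecules show peptides from inside the cell to CD8+ T cells. Proteasomes cut proteins into peptides, the TAP1 and TAP2 pump carries these into the endoplasmic reticulum, tapasin (the product of Tapbp) bridges the pump to the empty heavy chain with its B2m light chain, and the loaded complex goes to the cell surface. Interferon gamma raises most of these genes, partly through NLRC5, and exchanges the proteasome's constitutive catalytic subunits for those of the immunoproteasome. Nearly all nucleated cells make class I molecules, so RNA from tumor cells, stroma and leukocytes is mixed in a tumor piece, and fewer cells of a type cannot be told apart from less RNA per cell.

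The DNA in front of 3 members is shown because it carries motifs known to drive class I genes, and because Psmb9 and Tap1 share the stretch between their starts. The sequences come from RefSeq on GRCm38.p6, which had an entry for 8 of the 10 members, with Tap2 and Nlrc5 unmatched. Each run ends at the base before the start site and is written on the gene's strand. Capitals mark matches on either strand to 4 motifs: GGGA, any base, T, any 2 bases and CC (a kappa B motif), GAAA, any 2 bases and GAAA (the core of an interferon-stimulated response element), TGACG (the core of a cAMP response element) and ATTGG (an inverted CCAAT box). H2-K1 lies on the minus strand (chr17:34000348-34000597), H2-D1 on the plus strand (chr17:35262844-35263093) and B2m on the plus strand (chr2:122147437-122147686).
H2-K1: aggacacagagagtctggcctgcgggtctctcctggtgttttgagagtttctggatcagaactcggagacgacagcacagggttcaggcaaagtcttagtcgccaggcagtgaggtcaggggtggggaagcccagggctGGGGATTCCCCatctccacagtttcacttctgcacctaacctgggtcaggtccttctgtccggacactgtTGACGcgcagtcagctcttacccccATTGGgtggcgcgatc
H2-D1: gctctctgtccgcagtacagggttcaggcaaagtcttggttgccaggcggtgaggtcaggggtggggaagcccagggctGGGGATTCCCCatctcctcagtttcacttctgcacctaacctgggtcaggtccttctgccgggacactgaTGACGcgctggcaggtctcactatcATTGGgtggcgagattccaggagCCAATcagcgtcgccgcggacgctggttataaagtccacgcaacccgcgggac
B2m: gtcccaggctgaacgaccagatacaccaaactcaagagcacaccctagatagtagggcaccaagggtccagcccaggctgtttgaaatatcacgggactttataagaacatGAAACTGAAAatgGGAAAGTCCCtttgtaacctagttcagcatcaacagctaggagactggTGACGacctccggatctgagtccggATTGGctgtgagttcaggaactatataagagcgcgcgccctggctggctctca

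In all 3 of these genes, TGACG was followed by ATTGG with 25 bases from first base to first base. In H2-K1 and H2-D1 the kappa B motif matched on both strands in overlapping positions. The distance from its later match to TGACG was 69 bases, again from first base to first base. The kappa B motif was found in 3 of the 8 members with an entry and in 4.16% of the 32851 RefSeq promoters of the same 300-base length. The response element core was found in B2m alone of the 8 (3.44% of promoters), and TTC, any 3 bases and GAA, a gamma-activated site, in Psmb8 alone (8.3%). TGACG was found in 5 members (20.8% of promoters) and ATTGG in 6 (37.4%). The 25-base spacing, which was singled out after it had been seen, was found in 31 promoters, or 0.0944%. These matches are letters in a window and do not show a bound factor. Only exact matches were counted, so a promoter without a match may still hold a variant of the element.

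Psmb9 and Tap1 start 226 bases apart and run in opposite directions. The 225 bases between their RefSeq starts, chr17:34187331-34187555 on the strand of Tap1, hold an ATTGG match on the minus strand and a TGACG.
Psmb9-Tap1: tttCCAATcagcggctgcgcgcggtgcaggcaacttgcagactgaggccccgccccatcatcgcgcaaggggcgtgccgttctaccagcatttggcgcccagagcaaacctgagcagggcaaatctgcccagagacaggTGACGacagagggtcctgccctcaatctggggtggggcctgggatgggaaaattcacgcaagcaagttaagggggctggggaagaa

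On mm10, 7 members lie on chromosome 17. Psmb9 (34181987 to 34187764, minus strand), Tap1 (34187553 to 34197225, plus), Psmb8 (34197721 to 34201454, plus) and Tap2 (34203527 to 34216321, plus) are the 4 protein-coding genes of a 34335-base stretch. Tapbp (33915899 to 33929292, plus) and H2-K1 (33996017 to 34000347, minus) lie before it and H2-D1 (35262730 to 35267499, plus) after it. B2m is on chromosome 2 (122147686 to 122153083, plus). Psmb10 (105935735 to 105938444, minus) and Nlrc5 (94434356 to 94527272, plus) are on chromosome 8. In this annotation the exons of Tap1 and Psmb9 overlap by 212 bases on opposite strands. Exons of Tapbp (with Gm19412), Psmb8 (with Gm20496) and Tap2 (with Gm20496 and Gm15821) also overlap genes on the other strand, and those of Tapbp overlap Zbtb22 on its own strand. The library kit keeps the strand, but the strand setting of the counting is not given in the sources used here, so reads in these overlaps may have gone to either gene. The deposited expected counts were whole in 0% of libraries for Tapbp, 8.33% for Tap2 and Psmb8 and 25% for Tap1 and Psmb9.

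The libraries held 17754645 to 24097599 counts. Krt8, Krt18, Epcam and the other epithelial tumor markers, 8 of 8 above the filter, summed to 4930 to 8770 CPM (counts scaled to library size and TMM factor) in young and 4460 to 7370 CPM in old libraries. Acinar markers were scarce, with 2 of 10 above the filter and Prss1 at 0 in every library. Old tumor 1 was the highest old library for 8 of the 10 members. It also had the highest mean level of tested leukocyte, macrophage, fibroblast, endothelial and adipocyte markers of the 12 libraries.

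All 10 members were lower on average in old tumors, and Psmb10 was the member that fell past the threshold. Log2 fold changes of old over young ran from −1.03 to −0.24 with a median of −0.82, against a median of 0.03 over all 16013 tested genes. With edgeR's quasi-likelihood test and Benjamini-Hochberg adjustment over all tested genes, 1 of the 10 passed an adjusted p of 0.05, where 1.47% of tested genes passed as lower, 0.793% as higher and 2.26% in either direction. At an unadjusted p under 0.05, 7 of the 10 were lower, against 10.4% of tested genes lower and 10.7% higher. The members were high and low in the same few libraries, so these are not 10 independent results. A fold change below 0 was found for 45.8% of tested genes. None of the 10 had every old library below every young one, which 1.97% of tested genes did, and 0.999% had every old library above. Leaving out 1 library at a time gave 0 members in 9 of the 12 fits, 1 in the fits without Young tumor 2 and Young tumor 3, and 7 without Old tumor 1, the highest old library for most members (edgeR, with 4.17% of tested genes lower in that last fit). Other settings gave 3 of 10 with DESeq2 (6.17% of its tested genes lower), 7 with limma-voom (3.49%), 3 at an edgeR adjusted p of 0.1 (4.53%) and 5 without Old tumor 1 and Old tumor 5 (2.45%).

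**Figure D1:**
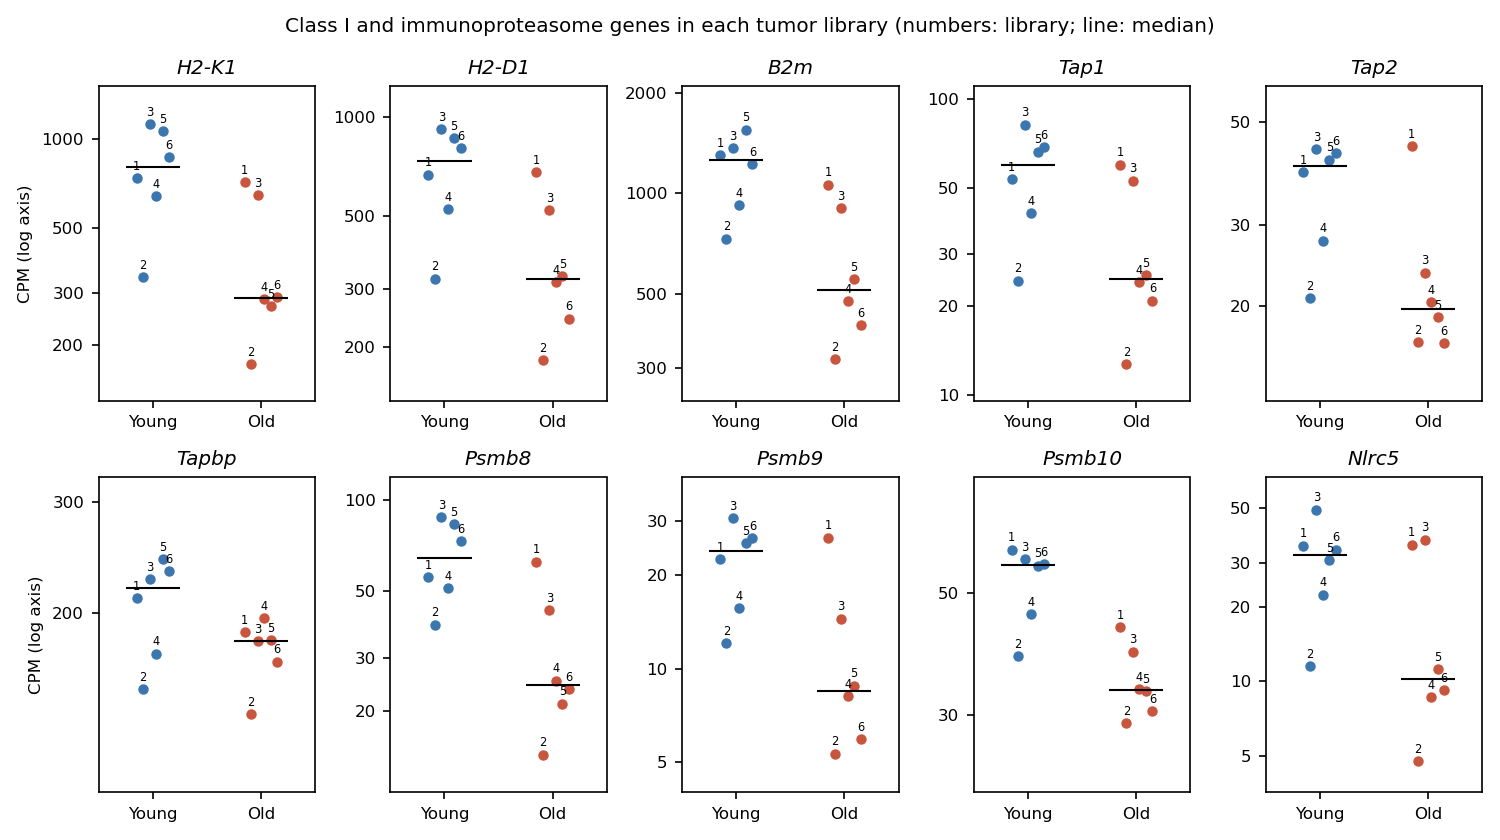
CPM on a log axis of each member in the 6 Young tumor and 6 Old tumor libraries; each point is a library with its number, and lines are medians. Old tumor 1 and Old tumor 3 sit among the young libraries for most members, Young tumor 2 is the lowest young library for all 10, and Old tumor 2 is the lowest old library for 9.

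Among the antigen-presenting chains, B2m was the most abundant member. Its values ran from 730 over a median of 1260 to 1550 CPM in young libraries and from 318 over 514 to 1060 CPM in old ones. Below every young library lay 4 old ones, and the highest old library, Old tumor 1, lay within the young range. Young libraries averaged 1180 ± 302 CPM and old ones 618 ± 295 CPM (SD, n = 6 each). The fold change, −0.93 on the log2 scale with an SE of 0.28, did not pass (edgeR adjusted p = 0.086). It passed in 1 of the 12 fits that left out a library, at −1.17 (SE 0.26, edgeR adjusted p = 0.022) without Old tumor 1, and was at −0.80 (edgeR adjusted p = 0.145) without Old tumor 2. Its deposited values were whole numbers in 100% of libraries.

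The heavy chain gene H2-K1, which codes for the polymorphic peptide-binding chain, ran from 340 over a median of 801 to 1120 CPM in young and from 172 over 288 to 714 CPM in old libraries. Old tumors 1 and 3 reached the young range and the other 4 old libraries lay below every young one. The fitted change of −1.01 (log2, SE 0.36) missed the threshold (edgeR adjusted p = 0.13). H2-D1, the other classical heavy chain measured, ran from 323 over 738 to 923 CPM in young and from 183 over 322 to 680 CPM in old libraries. Below the young range lay 3 old libraries, and the fitted change was −0.86 (log2, SE 0.31; edgeR adjusted p = 0.14). Each passed in 1 of the 12 fits that left out a library, the one without Old tumor 1, at −1.27 (edgeR adjusted p = 0.044) for H2-K1 and −1.12 (edgeR adjusted p = 0.038) for H2-D1. Without Old tumor 2 they were at −0.85 (edgeR adjusted p = 0.213) and −0.71 (edgeR adjusted p = 0.232). Of the deposited expected counts of either heavy chain 0% were whole, as RSEM gives where reads are split between genes, so their division among related class I genes is uncertain.

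No difference past the threshold was found in the balance of light to heavy chain RNA. The log2 ratio of B2m to H2-K1 plus H2-D1, in TPM (abundance per transcript length) within a library, ran from 0.485 over a median of 0.756 to 1.23 in young and from 0.659 over 0.733 to 0.996 in old libraries. Old values lay inside the young range, and the difference in means was −0.02 (exact permutation, two-sided p = 0.874, unchanged by adjustment over 5 ratios and shares). Leaving out any library kept this difference between −0.08 and 0.07.

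The peptide loading genes spread over a wide range of effect. Tap1, which codes for one chain of the peptide pump, ran from 24.3 over a median of 60 to 82.1 CPM in young and from 12.7 over 24.7 to 60 CPM in old libraries (log2 fold change −0.78, SE 0.37, edgeR adjusted p = 0.24). Below the young range lay 3 old libraries. Tap2, its partner, ran from 20.8 over 40.2 to 43.7 CPM in young and from 16.6 over 19.6 to 44.4 CPM in old libraries (log2 fold change −0.62, SE 0.25, edgeR adjusted p = 0.18). Here Old tumor 1 was the highest of all 12 libraries, and the next old library, Old tumor 3, was at 23.6 CPM. With that library left out, Tap2 passed at −0.92 (SE 0.19, edgeR adjusted p = 0.018), and it missed in the other 11 such fits, with the smallest change of −0.54 (edgeR adjusted p = 0.301) without Old tumor 2. Tap1 missed in all 12, between −1.06 (edgeR adjusted p = 0.084) and −0.61 (edgeR adjusted p = 0.36).

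Tapbp differed least of the members. It ran from 151 over a median of 218 to 243 CPM in young and from 138 over 180 to 196 CPM in old libraries (log2 fold change −0.24, SE 0.12, edgeR adjusted p = 0.28). Every one of the 6 old libraries was under the young median, while 5 were inside the young range. With limma on log2(TPM + 1), a scale that puts the median gene at 0.13, Tapbp was at −0.06 (adjusted p = 0.79).

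The immunoproteasome subunits differed in size and spread. Psmb8, which replaces Psmb5, ran from 38.7 over a median of 64.4 to 87.8 CPM in young and from 14.4 over 24.5 to 62.5 CPM in old libraries (log2 fold change −1.03, SE 0.32, edgeR adjusted p = 0.091). Psmb9, which replaces Psmb6, ran from 12.1 over 24.0 to 30.6 CPM in young and from 5.32 over 8.49 to 26.4 CPM in old libraries (log2 fold change −0.94, SE 0.37, edgeR adjusted p = 0.17). In both, 4 old libraries lay below every young one and Old tumor 1 lay inside the young range. Each passed in 1 of the 12 fits that left out a library, at −1.36 (edgeR adjusted p = 0.017) and −1.39 (edgeR adjusted p = 0.018) without Old tumor 1. Without Old tumor 2, Psmb8 was at −0.88 (edgeR adjusted p = 0.151) and Psmb9 at −0.79 (edgeR adjusted p = 0.265).

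Psmb10, which replaces Psmb7, had a smaller and tighter difference. It ran from 38.4 over a median of 56.0 to 59.8 CPM in young and from 29.0 over 33.3 to 43.3 CPM in old libraries. Below all young ones lay 4 old libraries, and 5 young libraries lay above all old ones. Its means of 52.2 ± 8.33 and 34.7 ± 5.43 CPM (SD, n = 6 each) differed past the threshold (edgeR adjusted p = 0.035): Psmb10 fell by 0.59 in log2 units, with an SE of 0.12. It missed the threshold on log2(TPM + 1), at −0.44 (limma adjusted p = 0.061). The call held in 3 of the 12 fits that left out a library (without Young tumor 2, Young tumor 3 or Old tumor 1) and was lost in the other 9, with log2 fold changes from −0.68 to −0.54 and adjusted p from 0.012 to 0.081 over the 12.

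Nlrc5, which switches on class I genes, varied most between libraries of one age. It ran from 11.5 over a median of 32.4 to 49.2 CPM in young and from 4.75 over 10.2 to 37.3 CPM in old libraries (log2 fold change −0.78, SE 0.48, edgeR adjusted p = 0.37). Below every young one lay 4 old libraries, while Old tumor 3 and Old tumor 1 lay above the young median. Without Old tumor 1 it was at −1.12 (SE 0.48) and still did not pass (edgeR adjusted p = 0.17).

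Spread within an age set the members apart from each other. The SD of log2 CPM within age was 0.98 for Nlrc5, larger than for 96.7% of tested genes, and 0.75 for Tap1, 0.72 for H2-K1, 0.71 for Psmb9, 0.64 for H2-D1 and 0.63 for Psmb8. B2m was at 0.56 and Tap2 at 0.49. Psmb10 and Tapbp, at 0.23 each, were close to the median of 0.24 over all tested genes. Levels per transcript length, as mean TPM over 12 libraries, ran in the order B2m (1790), H2-K1 (618), H2-D1 (443), Tapbp (119), Psmb8 (64.0), Psmb10 (57.2), Psmb9 (38.9), Tap1 (28.6), Tap2 (18.4) and Nlrc5 (15.6). In both ages, H2-K1 and H2-D1, Psmb8 and Psmb10, Psmb9 and Tap1, and Tap2 and Nlrc5 lay closer to each other than the larger of their SDs. The other neighbours in the order lay farther apart than that in at least 1 age. Psmb8, for example, was at 84.1 ± 28.0 TPM in young and 43.9 ± 23.2 TPM in old libraries, beside 66.2 ± 11 and 48.3 ± 6.88 TPM for Psmb10 (SD, n = 6 each).

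Other genes of the pathway were read from the same fit. The constitutive catalytic subunits, which the immunoproteasome subunits replace, were lower too: 2 of 3 passed. Over all tested genes, 1.47% passed as lower and 0.793% as higher (edgeR). Psmb6 fell by 0.36 (SE 0.066, edgeR adjusted p = 0.030) and Psmb7 by 0.44 (SE 0.082, edgeR adjusted p = 0.030), and Psmb5 was at −0.36 (SE 0.088, edgeR adjusted p = 0.051). Of the 12 fits that left out a library, the call held in 3 for Psmb6 (−0.39 to −0.32) and in 5 for Psmb7 (−0.48 to −0.41). Of 9 proteasome activators and assembly factors 3 fell and 0 rose: the activator gene Psme2 fell by 0.46 (SE 0.11, edgeR adjusted p = 0.044), the assembly factor gene Pomp by 0.41 (SE 0.096, edgeR adjusted p = 0.044) and Psmg3, a proteasome assembly chaperone, by 0.45 (SE 0.077, edgeR adjusted p = 0.026). These calls held in 1 of the 12 fits without a library for Psme2, 2 for Pomp and 8 for Psmg3, and the list's count ran from 0 to 5 over those fits, with 0 in 4 of them. The median log2 fold change was −0.36 over the constitutive subunits and −0.34 over the activators and assembly factors.

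Folding and trimming genes of the endoplasmic reticulum, 10 in the list, gave 0 calls with edgeR and 0 with DESeq2, with 2 lower at an unadjusted p under 0.05 and a median log2 fold change of −0.14. The genes of smallest p were Pdia3, a thiol oxidoreductase of the loading complex (−0.24, SE 0.11), Bcap31, an export receptor (−0.18, SE 0.082), and Canx, the chaperone calnexin (−0.13, SE 0.073). Transcription factors of class I promoters gave 0 calls of 12 by either tool, with a median of 0.01. At an unadjusted p under 0.05, 1 was lower and 1 higher. Irf1, an interferon-induced activator, was at −0.35 (SE 0.15), and the RFX complex genes Rfxank and Rfx5 were at 0.21 (SE 0.093) and 0.26 (SE 0.15).

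Genes of interferon gamma signalling gave 0 calls among 11 tested by either tool, with a median log2 fold change of −0.05 and 1 gene higher at an unadjusted p under 0.05. The kinase gene Jak1 was at 0.18 (SE 0.073), the phosphatase gene Ptpn2 at −0.23 (SE 0.11) and Ciita, the class II counterpart of Nlrc5, at −0.44 (SE 0.26). Ifng itself had 0 to 8 counts per library and was not tested, so no comparison of its level could be made at this depth.

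**Figure D2:**
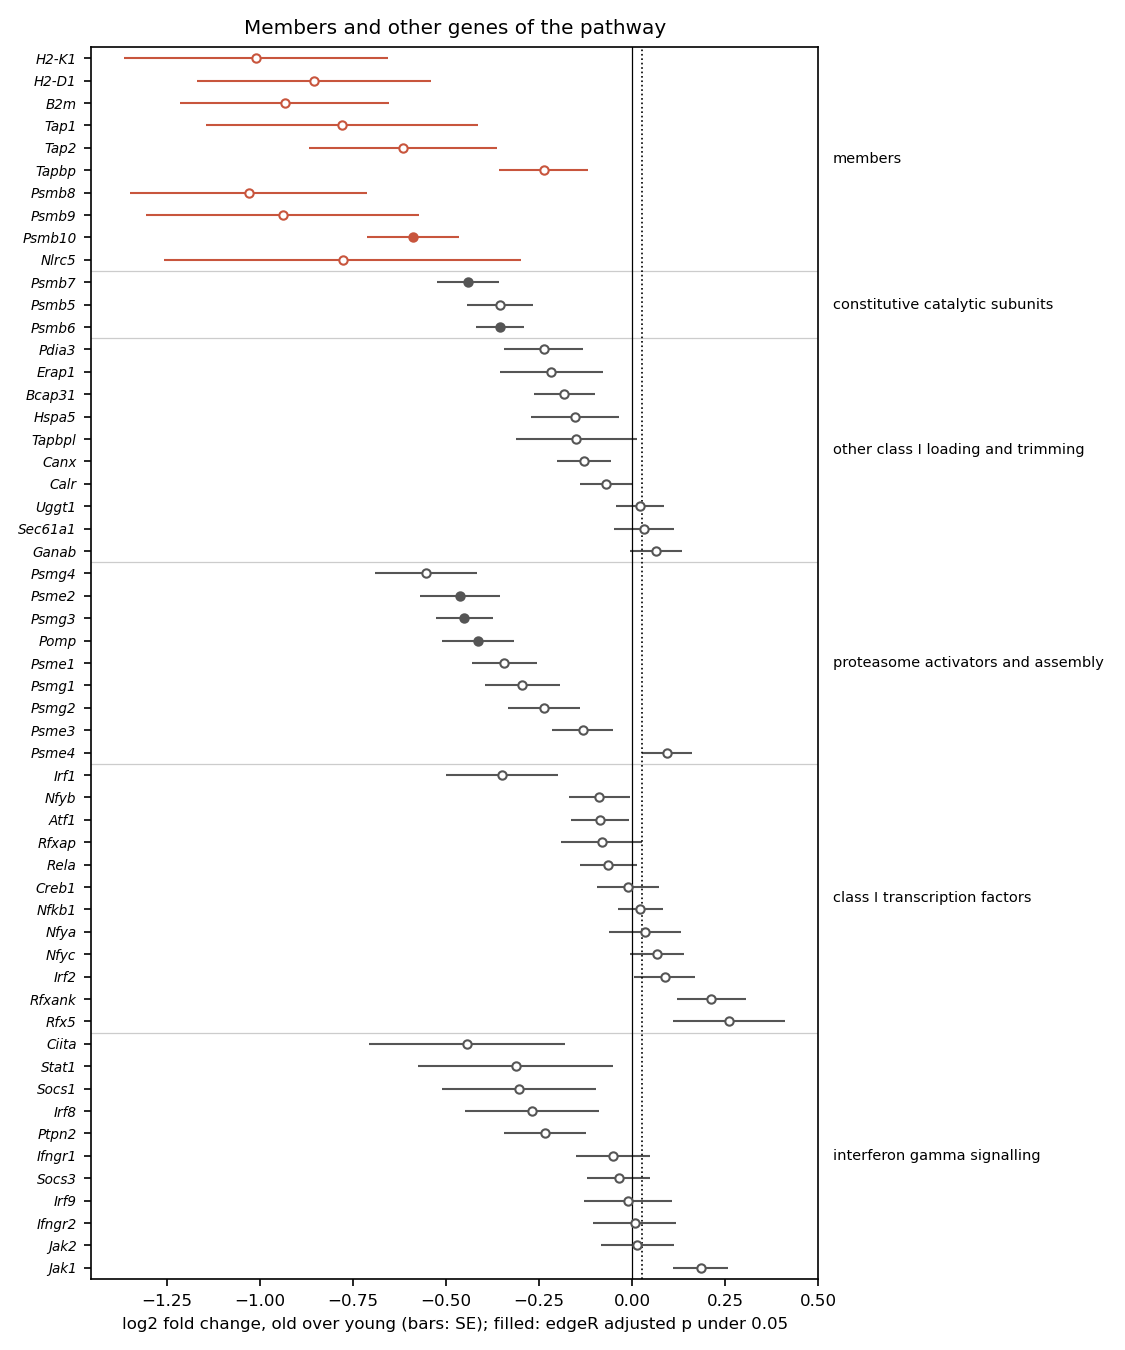
Log2 fold change of old over young (points) with SE (bars) for the members (red) and 5 lists of other pathway genes (grey); filled points passed an edgeR adjusted p of 0.05 and the dotted line is the median of all tested genes. Psmb10 is the filled member, and Psmb6, Psmb7, Psme2, Pomp and Psmg3 are the other filled points.

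Set against their constitutive counterparts within a library, Psmb8 and Psmb9 were lower in most old tumors, but no ratio passed. The log2 ratio of Psmb8 to Psmb5 in TPM ran from −1.25 over a median of −0.80 to −0.03 in young and from −2.52 over −1.69 to −0.54 in old libraries, and the means differed by −0.80 (exact permutation, two-sided p = 0.0606, adjusted over 5 to 0.148). Below all young ones lay 4 old libraries. The log2 ratio of Psmb9 to Psmb6 had a mean difference of −0.81 with the same p of 0.0606 by exact permutation, again with 4 old libraries below the young range. The log2 ratio of Psmb10 to Psmb7 had a mean difference of −0.15 (exact permutation p = 0.394, adjusted to 0.492), and 0 old libraries lay below the young range. That difference ran from −0.27 to −0.06 when a library was left out.

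Together the 3 immunoproteasome subunits made up 25.3% ± 5.14 of the TPM of the 6 catalytic subunits in young tumors, and 19.2% ± 6.06 (SD, n = 6 each) in old ones. The young libraries ran from 18.2% over a median of 25.8% to 32.8%, and the old ones from 12.8% over 16.5% to 28.3%. The difference of −6.03 percentage points did not pass (exact permutation, two-sided p = 0.0887, adjusted to 0.148). Without Old tumor 1 the share differed by −7.84 points, Psmb8 to Psmb5 by −0.99 and Psmb9 to Psmb6 by −1.08, and exact permutation gave all 3 an adjusted p of 0.0469. The other 11 fits without a library did not pass. Without Old tumor 2 the differences were −4.74 points, −0.59 and −0.64, and the adjusted p was 0.299 for each (exact permutation). The exact test cannot go below 0.00216 over the 924 splits of 12 libraries.

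**Figure D3:**
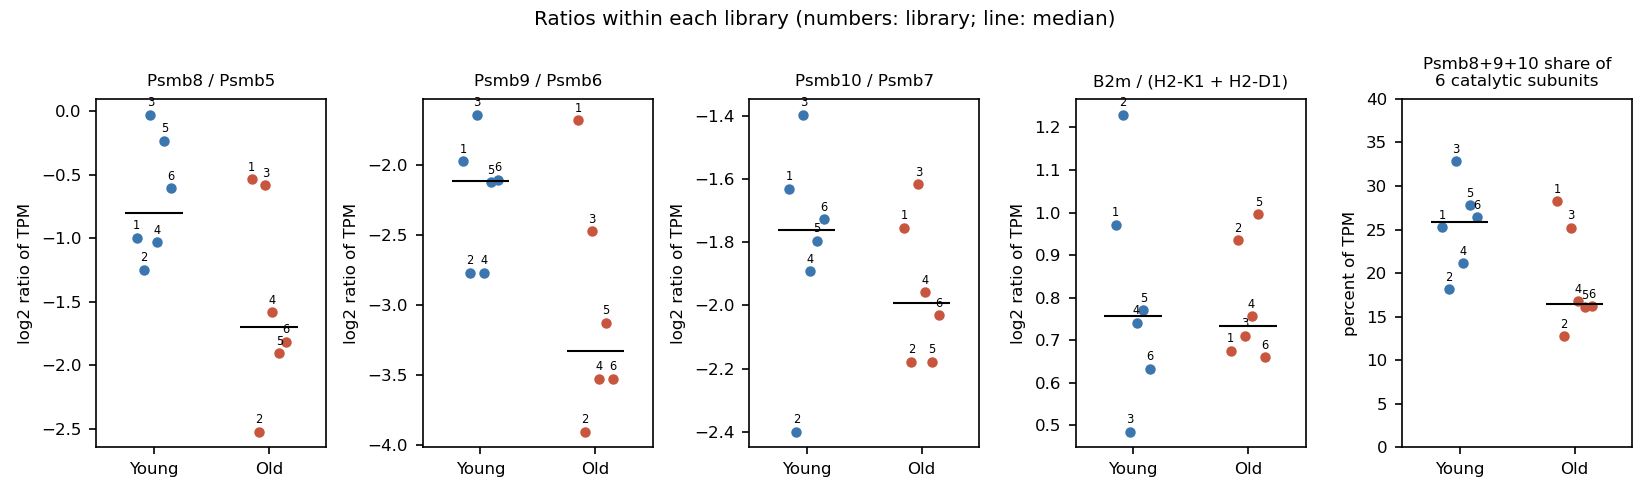
Log2 ratios of TPM within each library (first 4 panels) and the percent of catalytic subunit TPM from Psmb8, Psmb9 and Psmb10 (last panel), with libraries numbered and lines at medians. Old tumors 1 and 3 stand above the other 4 old libraries for Psmb8, Psmb9, Psmb10 and the share. For B2m to heavy chains the old values lie within the young range.

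The same few libraries were high or low for most members. Young tumor 3 was the highest young library for 7 of the 10 members and Old tumor 1 the highest old library for 8. Young tumor 2 was the lowest young library for 10 and Old tumor 2 the lowest old library for 9, and of all 12 libraries for 9. The summed TPM of the 10 members ran from 2270 in Young tumor 2 to 5273 in Young tumor 3, and from 1240 in Old tumor 2 to 3973 in Old tumor 1.

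Nlrc5 separated the libraries into 5 at or below 11.5 CPM (Young tumor 2 and Old tumors 2, 4, 5 and 6) and 7 at or above 22.4 CPM, of which 5 were young and 2 old. No coefficient pooled over both ages is given for Nlrc5, and the 7 libraries were set apart after the data had been seen. Within young libraries alone, Pearson's r of Nlrc5 with each other member ran from 0.868 to 0.964 (unadjusted exact permutation p 0.00694 to 0.025). Within old libraries alone, r ran from 0.581 to 0.988 (unadjusted exact permutation p 0.00556 to 0.212, the largest for Tapbp). Both ages have libraries on either side of the gap, so these coefficients cross it too. Within the 7 higher libraries, Pearson's r of Nlrc5 with each other member ran from 0.23 to 0.79 and passed in 0 of 9 relations (two-sided exact permutation, smallest adjusted p = 0.407). The 5 lower libraries were too few for a correlation.

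**Figure D4:**
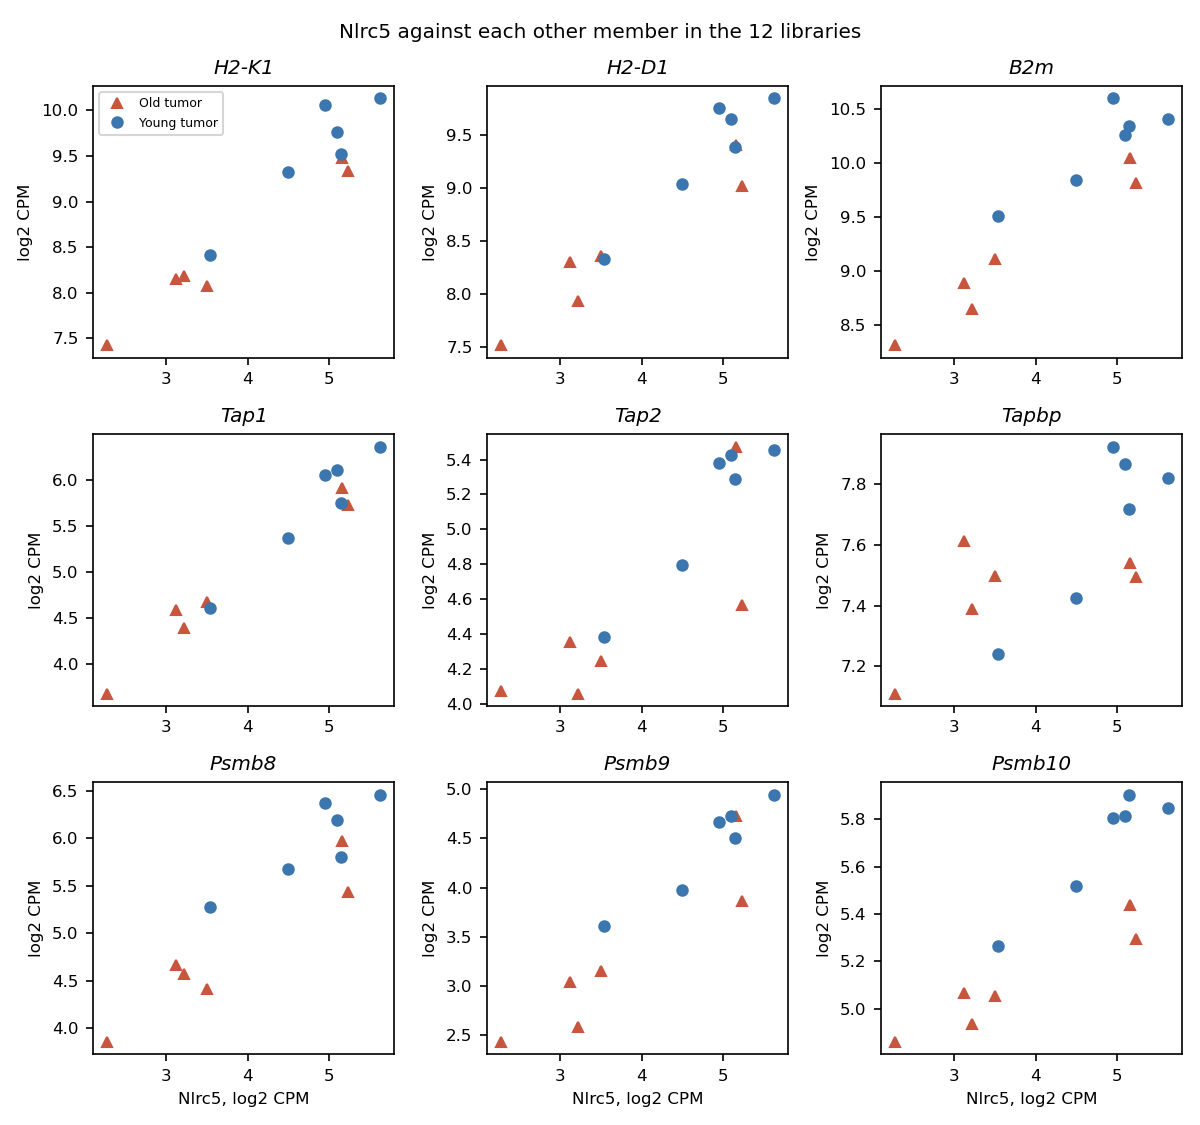
Log2 CPM of each other member against log2 CPM of Nlrc5 in the 12 libraries (circles: Young tumor, triangles: Old tumor). The 5 libraries at or below 11.5 CPM of Nlrc5 sit at the left, apart from the other 7. For Psmb10, Old tumors 1 and 3 lie below the 5 young libraries among those 7.

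The genes most like the members included known interferon-inducible genes and T cell genes. Likeness was Pearson's r over 12 libraries with the mean z score of the 10 members, among 13111 other named genes with a mean of at least 1 CPM, and these points share the separation of libraries just described. The highest values were found for the nonclassical class I gene H2-Q4 (r = 0.99), the class II peptide exchange gene H2-DMb1 (0.978), the nucleic acid sensor gene Zbp1 (0.975), the GTPase gene Ifi47 (0.97), Nmi (0.967) and the GTPase gene Igtp (0.966). Cd3g and Cd3e, which code for CD3 chains of the T cell receptor complex, followed (0.965 and 0.964; both are also in the T cell marker list), then the interferon-inducible GTPase genes Gvin1 (0.958) and Tgtp2 (0.952). The median of all compared genes was −0.03. All 10 of these genes were lower in old tumors on average and 0 passed (edgeR). Their log2 fold changes ran from −1.28 (SE 0.43) for Gvin1 to −0.34 (SE 0.12) for Nmi. They were chosen for likeness to members that were lower in old tumors, so their direction follows from the choice and is no separate result.

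**Figure D5:**
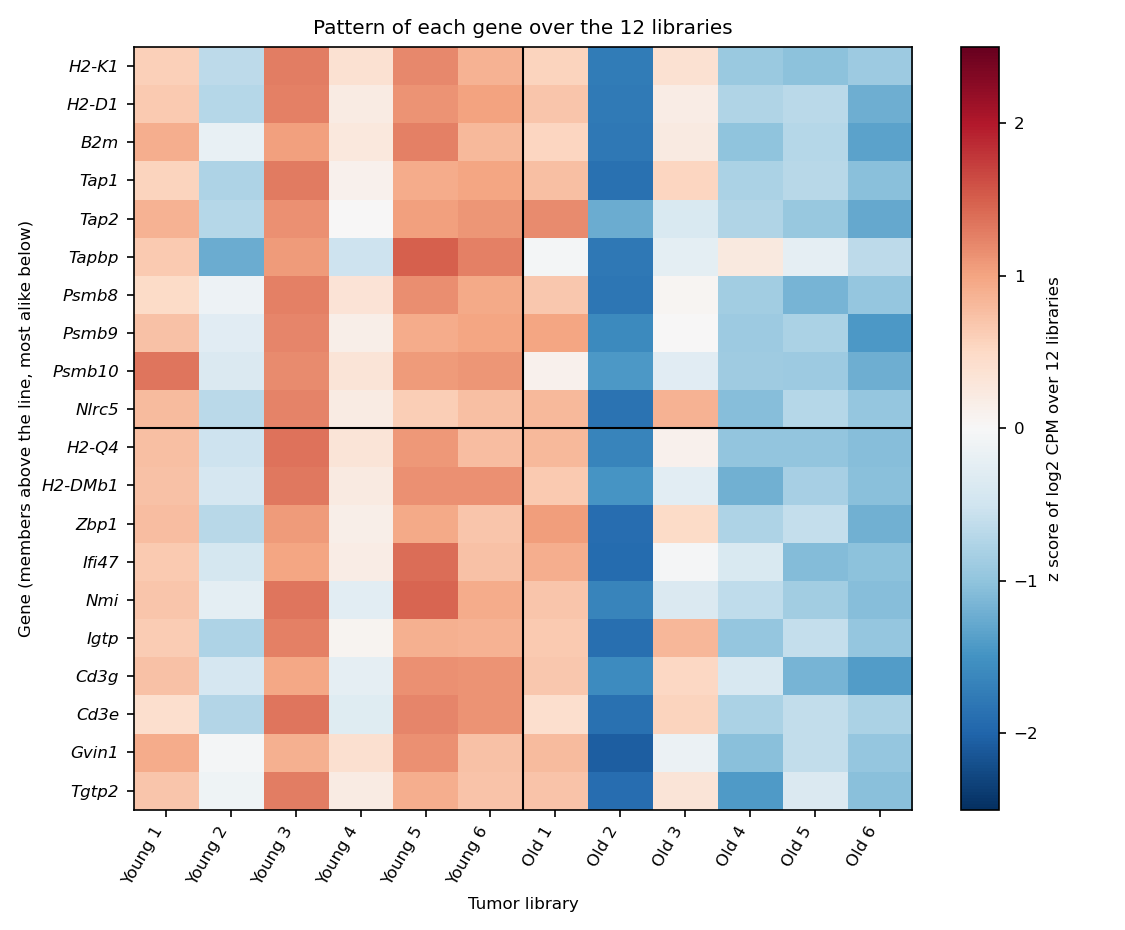
Z scores of log2 CPM over 12 libraries (columns) for the 10 members (above the line) and the 10 genes most like them (below). Old tumor 2 is the deepest blue column (mean z of the members −1.69) and Young tumor 3 has their highest mean z (1.2), while Old tumor 1 (0.623) is red for most genes.

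Marker RNA of T cells was lower in old tumors on average, as the members were, and so were 4 of 5 tested natural killer cell markers. All 10 T cell markers were above the filter and lower on average in old tumors, with 0 calls (edgeR). At an unadjusted p under 0.05, 5 were lower, against 10.4% of tested genes. With DESeq2 2 passed as lower, against 6.17% of its tested genes. These 10 markers are not independent results. Their summed level was 21.1 to 49.1 CPM in young and 9.33 to 35.6 CPM in old libraries, and 0 of them were at 0 counts in any library. Of 8 natural killer cell markers 5 were tested, 4 were lower on average and 1 passed: Gzma, a granzyme gene named after its value was seen, fell by 2.14 (log2, SE 0.46; edgeR adjusted p = 0.035). That call held in 2 of the 12 fits that left out a library, with values from −2.69 to −1.85. Klrk1 was higher on average (0.34, SE 0.35), Eomes was at −0.05 (SE 0.17), and Ncr1, Klrb1c and Prf1 were not tested. The 5 tested natural killer cell markers summed to 13.8 to 28.0 CPM in young and 8.42 to 15.4 CPM in old libraries. In the whole list 2 markers, Ncr1 and Klrb1c, were at 0 counts in at least 1 library.

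The leukocyte list, 8 of 8 tested, had 7 below 0, a median log2 fold change of −0.15 and 0 calls by edgeR or DESeq2, with 0 at an unadjusted p under 0.05. Its members ran from −0.52 to 0.04. Ptprc, which codes for CD45, was at 51.3 ± 13.8 CPM in young tumors and 48.9 ± 14.1 CPM in old ones (log2 fold change −0.07, SE 0.20; SD over n = 6 each). The leukocyte list summed to 388 to 577 CPM in young and 302 to 686 CPM in old libraries, and the macrophage list to 954 to 1500 and 889 to 2190 CPM. With the leukocyte score as a covariate, the log2 fold change was −0.82 (SE 0.25) for B2m, −0.88 (SE 0.34) for H2-K1 and −0.91 (SE 0.28) for Psmb8. For Psmb10 it was −0.52 (SE 0.12, edgeR adjusted p = 0.057), for Psmb9 −0.78 (SE 0.27) and for H2-D1 −0.72 (SE 0.28). Tap1 was at −0.61 (SE 0.33), Nlrc5 at −0.58 (SE 0.44), Tap2 at −0.47 (SE 0.19) and Tapbp at −0.21 (SE 0.13) in that fit. Dendritic cell markers, 6 of 8 tested, were all lower on average (0 calls by edgeR or DESeq2, 1 at an unadjusted p under 0.05). Fibroblast and endothelial markers, 8 of 8 each, were all higher on average with 0 calls by edgeR and 0 and 2 calls by DESeq2. At an unadjusted p under 0.05, 2 and 3 of them were higher, against 10.7% of tested genes (edgeR). Of 6 adipocyte markers 3 were tested, all higher in old tumors at an unadjusted p under 0.05, and 3 were at 0 in at least 1 library. Plin4, which codes for a lipid droplet protein and is named after its value was seen, rose by 2.27 (log2, SE 0.48; edgeR adjusted p = 0.035), a call that held in 3 of the 12 fits without a library. The 3 tested adipocyte markers summed to 17.4 to 30.9 CPM in young and 23.6 to 201 CPM in old libraries, and 2 of them passed as higher with DESeq2. Both tested acinar markers were lower on average with 0 calls by edgeR or DESeq2, 1 at an unadjusted p under 0.05. These 2 of 10 summed to 11.2 to 38.9 CPM in young and 11.2 to 18.0 CPM in old libraries. The part of any of these cell types in the members' difference was not tested.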

How the data were processed

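The members and the gene lists were chosen with earlier results of these data known. Per the submitters' processing notes, cutadapt 2.3, STAR 2.7.0d and RSEM 1.3.1 were used with mm10. Annotation and strand setting: not given in the sources used here. Values deposited by the authors were expected counts (whole for 86% to 88.2% of genes per library, zeros included) and TPM, which is per transcript length.

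Expected counts were rounded and tested with edgeR 4.0.16 in R 4.3.3 (TMM, filterByExpr, two-sided quasi-likelihood test, Benjamini-Hochberg over 16013 genes, adjusted p under 0.05). Each SE is the absolute log2 fold change divided by the square root of F. Log2 CPM used a prior count of 2. Ratios of TPM had exact permutation tests. DESeq2 1.42.0 and limma 3.58.1 served as alternatives. Coordinates came from GENCODE on GRCm38. Functions were tested on simulated data.

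The genes named are the members, the 3 constitutive subunits, the called genes and 3 of smallest p of each other pathway list, Ptprc, and the 10 genes most like the members; Ifng, Gzma, Plin4 and markers at 0 or used as examples were named besides. The labels give no link between same-numbered libraries, so the main fit had no block. Of the 6 same-numbered pairs, 2 had deviations correlated over 0.1, which does not settle whether they are paired.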

Additional observations from a re-analysis of the deposited data

Results flagged for a closer look

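Tap2 in Old tumor 1 stood far above the other old libraries, at 44.4 CPM beside 23.6 CPM in the next. This gap is 0.747 of the range of the 6 old libraries, above Dixon's critical value. It was 1 of 30 groups examined, and chance alone flags about 1 group in 20. The value without this library is given beside the Tap2 result.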

How the results depend on the processing

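Every member kept a log2 fold change below 0 in all 280 results under alternatives (28 for each of 10 members), while calls depended on the setting. These results are not independent. The alternatives at an adjusted p of 0.1 and of 0.01 reuse the main fold changes, and the others refit the same libraries. Instead of 1 member, 3 passed with DESeq2, 7 with limma-voom and quality weights, 3 at an adjusted p of 0.1 and 5 without Old tumor 1 and Old tumor 5. The count was 0 on log2(TPM + 1), on log2(TPM + 0.1), at an adjusted p of 0.01, with a replicate block, and with either the acinar or the leukocyte score as covariate. With the block all 10 members had an unadjusted p under 0.05 and Psmb10 was at −0.585; with the acinar score 9 had, Psmb10 was at −0.71 and H2-K1 at −1.24. The count of members was 0 to 7 when a library was left out, and 0 in 9 of the 12 such fits, where 5 to 9 members had an unadjusted p under 0.05. The cause was not tested. For these counts at an unadjusted p under 0.05 the share of all tested genes was not taken. That share is known for the main fit only (10.4% lower), so the counts are no result about the members. Over all genes 362 passed, and 1 to 1425 under the alternatives. With the replicate block, as with the acinar score, 1 of all genes passed, and 3 of 12 libraries correlated best with their own number. Log2 fold changes without one library ran from −1.27 to −0.85 for H2-K1 and from −1.17 to −0.80 for B2m. Differences without one library ran from −0.99 to −0.59 for Psmb8 to Psmb5, from −1.08 to −0.64 for Psmb9 to Psmb6 and from −7.84 to −4.52 points for the immunoproteasome share. Pooled over all libraries, 9 of 9 relations of Nlrc5 passed by Pearson's r (8 to 9 without one library) and 8 by Spearman's rho. Within the 7 higher libraries 0 passed by Pearson's r, a split chosen after seeing the data. Low counts kept Ifng out of the test.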
